A study of Mus musculus with 24 samples.

Results

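The Myc and Max dimerization network was followed through bone marrow-derived macrophages of diabetic and wild-type control mice, before and after an inflammatory stimulus. The 8 members were chosen by gene name, as Myc, Max, Mxd1, Mxd4, Mxi1, Mnt, Mlx and Mga, and all 8 were found among the 13568 genes of the deposited table. They were picked with the values of all 4 groups in view, so their levels and differences are given as a description and carry no p-value. Marrow came from 12 male C57Bl/6 mice. In 6 of them diabetes had been induced with streptozotocin (STZ), a chemical that kills insulin-producing beta cells, and the other 6 are labelled wild-type control with no treatment. Cells of both phenotypes were differentiated for 7 days with L929 cell-conditioned medium and selected by adhesion, and all cultures were kept in medium with 5 mmol/L glucose. Each mouse's sample was split into an unstimulated portion and a portion given 100 ng/mL lipopolysaccharide (LPS, a bacterial wall component) plus 10 ng/mL interferon-gamma (IFNγ) for 6 hours, which gave 4 groups of 6 RNA-seq libraries. The diabetic state was thus that of the mouse from which the marrow came, and the glucose in the dish was the same for every culture.

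As background, MYC, MAX and their relatives are basic helix-loop-helix leucine zipper proteins that bind DNA as dimers. MYC pairs with MAX and activates genes through the E-box CACGTG, many of which serve growth, ribosome production and nucleotide synthesis. The MXD proteins (MXD1, MXI1, MXD4) and MNT also pair with MAX, bind the same E-box and recruit the SIN3 and histone deacetylase corepressor. MGA is a large MAX partner found in a Polycomb-like repressor complex with L3MBTL2, PCGF6 and E2F6. MLX is the MAX-like partner of the glucose-responsive MONDO factors and of some MXD proteins. In myeloid cells MYC is known for its response to growth factors, and MXD1 for its rise as cells stop dividing and differentiate.

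Promoters are shown because members with opposite changes bind the same E-box, so that it can be seen which of their own promoters hold it. RefSeq promoter windows (GRCm38.p6, 250 bases before to 50 after the annotated start) were matched for 7 of the 8 members. The E-box CACGTG, which reads the same on both strands and is in capitals, was found in the windows of 4 members (Max, Mlx, Mnt and Mxd4). It starts at position -3 from the annotated start in Max, -40 in Mlx, -123 in Mnt and -219 in Mxd4.
Max, chr12:76962199-76962498, minus strand: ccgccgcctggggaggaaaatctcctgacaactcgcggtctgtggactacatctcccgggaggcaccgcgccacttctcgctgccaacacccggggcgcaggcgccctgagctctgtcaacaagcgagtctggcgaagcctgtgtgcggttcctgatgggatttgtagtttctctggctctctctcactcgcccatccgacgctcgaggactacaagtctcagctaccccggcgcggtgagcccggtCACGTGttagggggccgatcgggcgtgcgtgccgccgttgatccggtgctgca
Mlx, chr11:101087040-101087339, plus strand: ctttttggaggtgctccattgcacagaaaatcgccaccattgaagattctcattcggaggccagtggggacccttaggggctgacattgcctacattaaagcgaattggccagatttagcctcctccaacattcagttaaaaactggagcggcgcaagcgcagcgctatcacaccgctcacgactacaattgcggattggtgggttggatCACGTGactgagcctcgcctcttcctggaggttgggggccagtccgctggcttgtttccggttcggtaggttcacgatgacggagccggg
Mnt, chr11:74830674-74830973, plus strand: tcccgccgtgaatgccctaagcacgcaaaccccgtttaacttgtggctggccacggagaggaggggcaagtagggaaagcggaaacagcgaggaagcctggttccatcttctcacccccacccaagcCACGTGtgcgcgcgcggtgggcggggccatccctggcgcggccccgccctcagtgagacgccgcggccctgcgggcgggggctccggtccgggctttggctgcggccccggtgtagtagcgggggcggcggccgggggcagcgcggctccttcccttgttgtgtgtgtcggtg
Mxd4, chr5:34187661-34187960, minus strand: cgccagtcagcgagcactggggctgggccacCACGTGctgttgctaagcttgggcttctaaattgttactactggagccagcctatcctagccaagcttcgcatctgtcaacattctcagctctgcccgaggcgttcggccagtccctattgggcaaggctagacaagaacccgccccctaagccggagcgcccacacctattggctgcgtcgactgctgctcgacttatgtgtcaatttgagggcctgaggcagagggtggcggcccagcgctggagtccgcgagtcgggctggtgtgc
Mxd1, chr6:86669110-86669409, minus strand: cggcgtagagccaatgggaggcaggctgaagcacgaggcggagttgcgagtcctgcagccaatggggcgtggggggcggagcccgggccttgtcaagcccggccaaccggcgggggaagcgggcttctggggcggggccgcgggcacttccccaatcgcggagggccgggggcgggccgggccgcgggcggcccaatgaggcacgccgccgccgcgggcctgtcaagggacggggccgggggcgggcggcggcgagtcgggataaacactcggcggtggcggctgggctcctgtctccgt
The Mxd1 window, that of the member with the largest difference on stimulation, holds no CACGTG, and neither do those of Mxi1 and Mga. For comparison, 7.15% of all 32851 windows in the table hold CACGTG. The other motifs searched on both strands were the AP-1 site TGANTCA (7.81% of all windows), the STAT site TTCNNNGAA (8.3%), the interferon-response-like site (3.44%) and the NF-kB site (8.46%). None of these other motifs matched in any member's window, which says only that the letters are not in these stretches.

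Libraries held between 16754771 and 34130060 reads, recovered from the deposited log2 CPM, counts scaled to a library's size. A level of 3 reads corresponds to between 0.0835 and 0.175 CPM, and the members were far above it in every library. The lowest count of any member was 76 reads, for Myc in a stimulated diabetic library. The authors' scaling lets the CPM of a library sum to between 774397 and 811175 without the stimulus. With it the sum was between 1273601 and 1378147 for control and between 1201119 and 1239515 for diabetic cultures. Under it the median of all 11710 tested genes differed by -0.30 (log2) between stimulated and unstimulated control libraries and by -0.25 in diabetic ones, against -0.92 and -0.82 when libraries were scaled by total reads. RNA-seq of whole cultures cannot tell fewer cells of a type from less RNA per cell.

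Unstimulated, no member dominated the network. Per kilobase of exon (CPM/kb, used here whenever 2 genes are compared), Mlx, Max and Mnt led in control libraries with means of 18.4 ± 1.21, 16.5 ± 0.57 and 15.8 ± 0.63 (SD, n = 6), and the ranges of neighbours in that order overlapped. Myc followed at 12.9 ± 1.36 and Mxd4 at 9.50 ± 0.31, then Mga, Mxi1 and, last, Mxd1 at 2.54 ± 0.28, with no overlap between neighbours from Mnt down. Unstimulated diabetic libraries differed in order only at the top, where Mnt, Mlx and Max overlapped again, and Mga and Mxi1 overlapped as well.

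After 6 hours of LPS and IFNγ the order was turned over. Mxd1 stood first, at 143.7 ± 19.6 CPM/kb in control and 114.4 ± 6.05 in diabetic libraries, and Max second, at 109.7 ± 6.60 and 102.0 ± 2.34. Mlx came next in both phenotypes, at 24.04 ± 1.09 and 24.9 ± 0.75. Every other member was at or below 7.24 CPM/kb in each library. Mxd4 was last in both phenotypes, and its range overlapped that of Mxi1 in control libraries but not that of Myc in diabetic ones. Myc ranked 5 in control libraries and 7 in diabetic ones, where its range overlapped that of Mxi1.

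**Figure D1:**
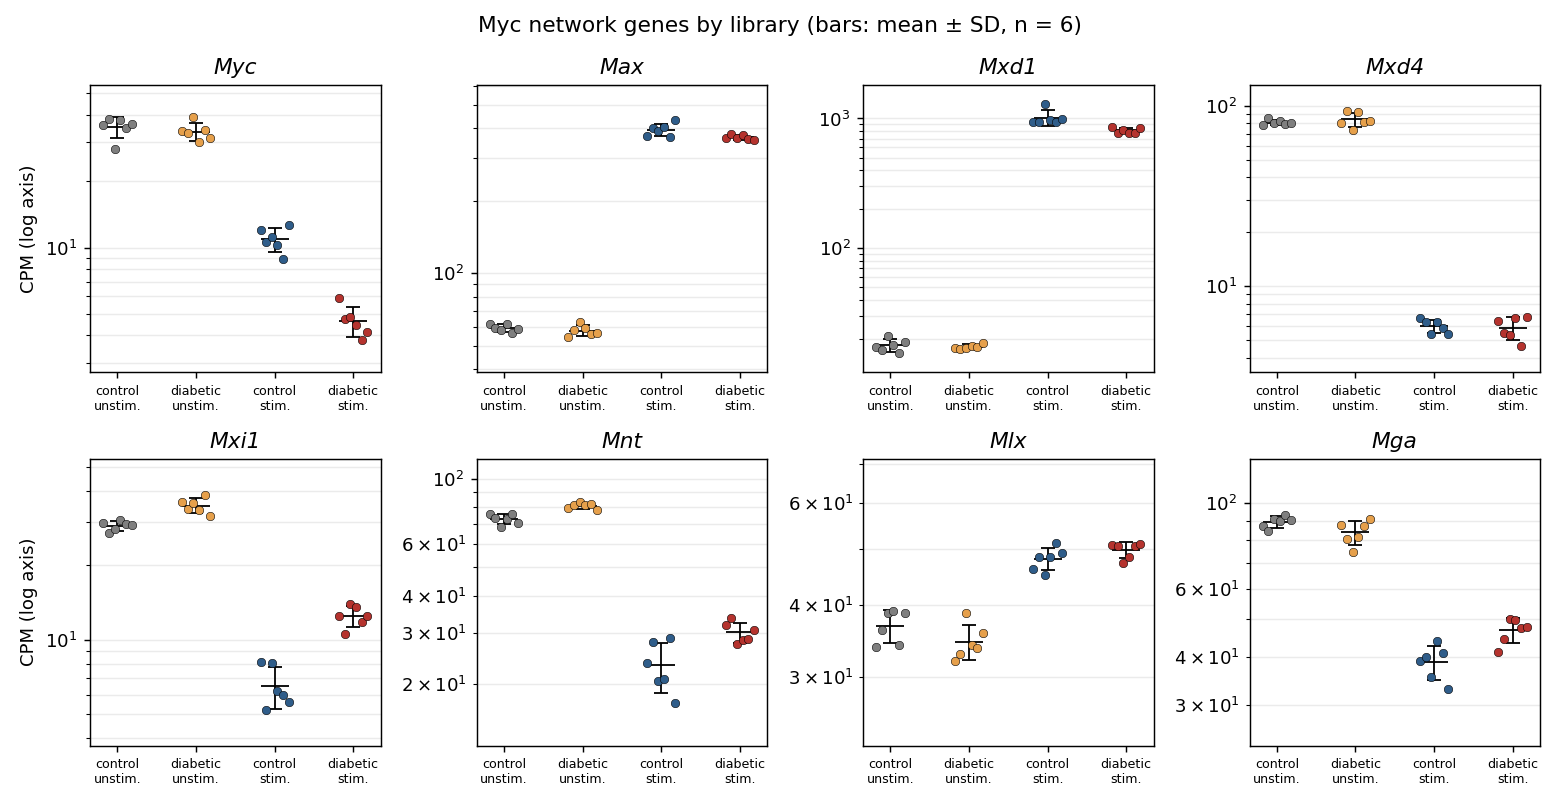
Level of each member in all 24 libraries, in CPM on a log axis, with points for libraries and bars for the mean ± SD of 6. Stimulated libraries sit below unstimulated ones for Myc, Mxd4, Mxi1, Mnt and Mga and above them for Max, Mxd1 and Mlx. Within the stimulated libraries Myc, Mxd1 and Mxi1 separate the phenotypes without overlap.

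Myc (ENSMUSG00000022346, chr15:61985391-61990374 on the plus strand) encodes the activating member. In unstimulated control libraries it was at 28.02 CPM at the lowest, 36.1 at the median and 38.3 at the highest. Unstimulated diabetic libraries ran from 30.1 over 33.4 to 39.0 CPM. The phenotypes thus overlapped without the stimulus. Stimulated control libraries held 8.88, 10.9 and 12.7 CPM (lowest, median, highest), and stimulated diabetic libraries 3.82, 4.58 and 5.90 CPM. All stimulated libraries were below all unstimulated ones, and every stimulated diabetic library was below every stimulated control library. The mean was 3.22-fold lower on stimulation in control cultures and 7.22-fold lower in diabetic ones, a log2 difference of -1.60 ± 0.08 and -2.62 ± 0.08 (SE). Diabetic minus control, it was -0.06 ± 0.08 without the stimulus and -1.08 ± 0.08 with it, which makes the difference between the responses -1.01 ± 0.12. The stimulated phenotype difference was -1.04 among the libraries in the first 12 columns of the table and -1.12 among those in the last 12. Each set held 3 mice of either phenotype, and column order was the only possible batch examined. Sample numbers in the titles are lower for all unstimulated than for all stimulated libraries, so any order they mark cannot be told apart from the stimulus.

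Max (ENSMUSG00000059436, chr12:76937269-76962201 on the minus strand) encodes the shared partner of MYC, the MXD proteins, MNT and MGA. Its level was 56.4 CPM at the lowest, 59.1 at the median and 61.7 at the highest in unstimulated control libraries, and 54.4, 57.3 and 62.7 CPM in unstimulated diabetic ones. With the stimulus it was 369.2, 394.0 and 432.7 CPM in control libraries and 358.3, 364.9 and 379.9 CPM in diabetic ones. Stimulated libraries were all far above unstimulated ones, and the phenotypes overlapped under both conditions. The mean was 6.65-fold higher on stimulation in control cultures (2.71 ± 0.04 log2) and 6.35-fold higher in diabetic ones (2.65 ± 0.04). The stimulated phenotype difference was small, at -0.10 ± 0.04, and at 0.00 when libraries were scaled by total reads. It was -0.17 among the first 12 columns and -0.04 among the last 12, and between -0.12 and -0.08 with 1 library left out at a time.

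Mxd1 (ENSMUSG00000001156, chr6:86647042-86669161 on the minus strand) encodes MXD1, long known as MAD1, a repressor that is short-lived and turned on as cells leave the cycle. It was near the bottom of the network without the stimulus, at 15.6, 17.7 and 21.2 CPM (lowest, median, highest) in control and 16.8, 17.3 and 18.7 CPM in diabetic libraries. The stimulus brought it to 933.5, 963.9 and 1295 CPM in control libraries and to 769.6, 796.8 and 866.0 CPM in diabetic ones. No stimulated diabetic library reached the lowest stimulated control library, while the unstimulated groups overlapped. The mean was 56.6-fold higher on stimulation in control cultures and 46.3-fold higher in diabetic ones, or 5.74 ± 0.07 and 5.45 ± 0.07 on the log2 scale. The stimulated phenotype difference was -0.32 ± 0.07, and -0.25 without stimulated control replicate 3. That library held the highest Mxd1 level, 1295 CPM against 999.4 for the next, and also the highest sum of CPM, 1378147. The difference between the responses, -0.29 ± 0.09, was -0.21 within the first 12 columns and -0.37 within the last 12.

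Mxd4 (ENSMUSG00000037235, chr5:34173883-34187720 on the minus strand) encodes a second MXD repressor and went the other way. It was at 77.6, 80.0 and 85.3 CPM (lowest, median, highest) in unstimulated control libraries and at 73.5, 81.9 and 93.0 CPM in unstimulated diabetic ones. After the stimulus it was at 5.40, 6.07 and 6.67 CPM in control libraries and at 4.67, 5.93 and 6.75 CPM in diabetic ones. Stimulated and unstimulated libraries were far apart, and the phenotypes overlapped under both conditions. Its mean was 13.4-fold lower in control and 14.2-fold lower in diabetic cultures, at -3.55 ± 0.07 and -3.63 ± 0.07 on the log2 scale, the largest decrease among the members. The phenotype differences were 0.05 ± 0.07 and -0.03 ± 0.07. Annotated exons of Mxd4 overlap those of Gm42846 on the opposite strand. The library kit keeps strand, but no source used here gives the strand setting of the counting.

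Mxi1 (ENSMUSG00000025025, chr19:53310506-53375810 on the plus strand) encodes MXI1, a further MXD repressor. Unstimulated control libraries held 26.8, 29.1 and 30.4 CPM (lowest, median, highest) and unstimulated diabetic ones 31.7, 34.7 and 38.4 CPM. Stimulated control libraries held 5.22, 6.07 and 8.12 CPM and stimulated diabetic ones 10.5, 12.5 and 13.9 CPM. Diabetic libraries were above control libraries without overlap under both conditions, the opposite order to that of Myc in stimulated cultures. The mean was 4.42-fold lower on stimulation in control cultures and 2.79-fold lower in diabetic ones, at -2.003 ± 0.08 and -1.41 ± 0.08. Diabetic minus control, the log2 difference was 0.26 ± 0.08 without the stimulus and 0.85 ± 0.08 with it, so the responses differed by 0.59 ± 0.11. The stimulated difference was 0.94 within the first 12 columns and 0.76 within the last 12, and the unstimulated difference 0.22 and 0.30 in the same order. Exons of Mxi1 overlap those of Gm10197 on the opposite strand.

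Mnt (ENSMUSG00000000282, chr11:74830920-74845725 on the plus strand) encodes MNT, the broadly expressed repressor that occupies MAX in resting cells. Its level was 73.0 ± 2.90 CPM in unstimulated control, 81.1 ± 1.93 in unstimulated diabetic, 23.2 ± 4.48 in stimulated control and 30.0 ± 2.35 in stimulated diabetic libraries (SD, n = 6). With the stimulus the mean was 3.15-fold lower in control and 2.70-fold lower in diabetic cultures, and no stimulated library reached an unstimulated one. Unstimulated diabetic libraries, from 78.2 to 83.7 CPM, were all above unstimulated control libraries, from 68.7 to 76.2 CPM, with a small log2 difference of 0.15 ± 0.08. In stimulated cultures the difference was larger, at 0.38 ± 0.08, but control libraries spread from 17.3 to 28.8 CPM and overlapped the diabetic range of 27.5 to 33.5 CPM. It was 0.54 within the first 12 columns and 0.21 within the last 12.

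Mga (ENSMUSG00000033943, chr2:119897228-119969581 on the plus strand) was at 89.2 ± 3.03 CPM in unstimulated control, 83.9 ± 5.89 in unstimulated diabetic, 38.7 ± 3.97 in stimulated control and 46.8 ± 3.43 in stimulated diabetic libraries. Its level was 2.31-fold lower on stimulation in control and 1.79-fold lower in diabetic cultures, at -1.19 ± 0.06 and -0.83 ± 0.06, and the responses differed by 0.36 ± 0.08. Stimulated diabetic libraries, from 41.2 to 50.2 CPM, overlapped stimulated control libraries, from 32.9 to 44.0 CPM. The stimulated phenotype difference of 0.27 ± 0.06 was 0.19 within the first 12 columns and 0.35 within the last 12. The difference between responses was 0.22 and 0.50 in the same order.

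Mlx (ENSMUSG00000017801, chr11:101087277-101092207 on the plus strand) moved least. It was at 36.8 ± 2.41 CPM in unstimulated control, 34.5 ± 2.41 in unstimulated diabetic, 48.1 ± 2.18 in stimulated control and 49.8 ± 1.5 in stimulated diabetic libraries. On stimulation its level was 1.31-fold and 1.44-fold higher (0.38 ± 0.05 and 0.52 ± 0.05 log2), but the sign turned to -0.32 and -0.10 when libraries were scaled by total reads. Phenotype differences were -0.09 ± 0.05 and 0.05 ± 0.05 and the groups overlapped. Exons of Mlx overlap those of Psmc3ip on the opposite strand.

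Within single mice the direction was uniform, which any pairing would give, since no member's stimulated and unstimulated groups overlapped. Replicate numbers were taken to mark the 2 portions of a mouse's culture, and by that pairing Myc, Mxd4, Mxi1, Mnt and Mga were lower and Max, Mxd1 and Mlx higher in the stimulated portion of all 12 mice, on the authors' scaling. Myc changed by between -1.86 and -1.26 in the 6 control mice and by between -2.86 and -2.33 in the 6 diabetic mice, with no overlap. For Mxi1 the ranges were -2.19 to -1.68 and -1.62 to -1.24, also without overlap, with the larger decrease in control mice. Mxd1 changed by between 5.64 and 5.87 in control mice and by between 5.37 and 5.58 in diabetic mice.

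Scaling by total reads, with its lower median of all genes, gave control responses of -2.27 for Myc, 2.01 for Max, 5.05 for Mxd1, -2.65 for Mxi1, -2.32 for Mnt and -1.89 for Mga. Apart from Mlx, no member's response changed sign under this or any other of the alternatives run.

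**Figure D2:**
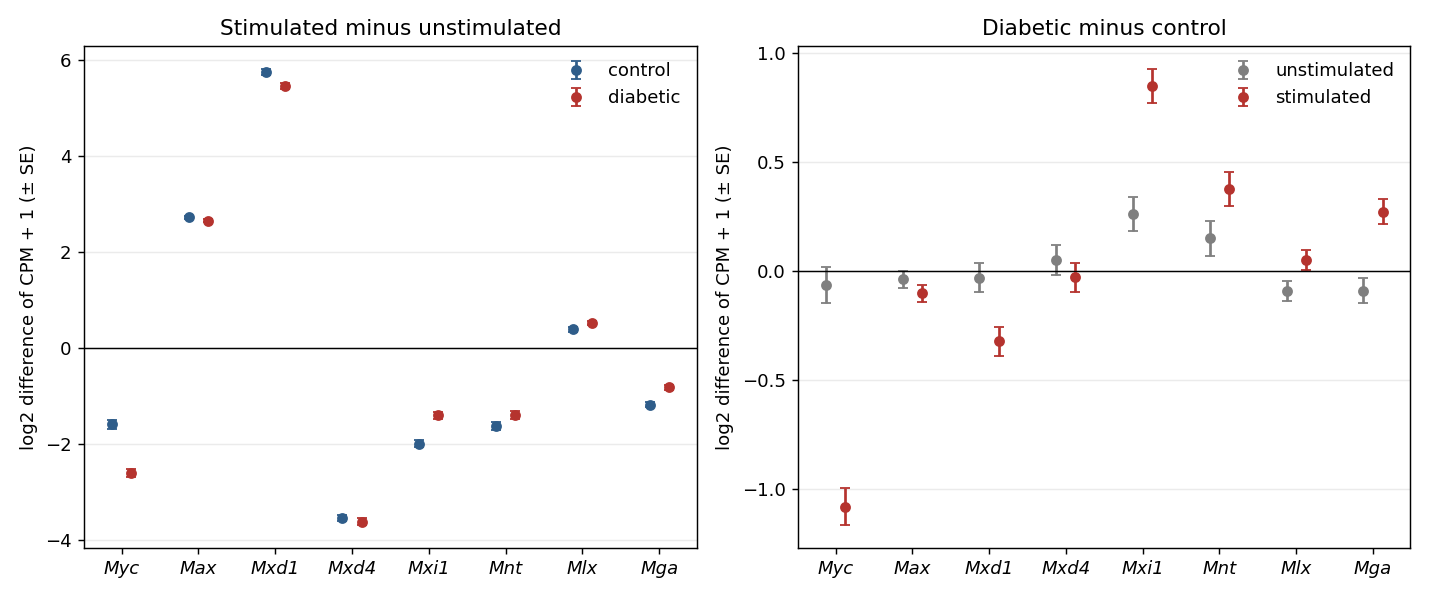
Log2 difference of CPM + 1 with its SE (n = 6 per group) for each member, as stimulated minus unstimulated on the left and diabetic minus control on the right. Responses run from -3.63 for Mxd4 to 5.74 for Mxd1, and the stimulated phenotype differences from -1.08 for Myc to 0.85 for Mxi1.

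The network's make-up changed with the stimulus from several members of like level to 2 dominant ones. The summed level of the 8 genes was 85.7 ± 2.04 CPM/kb in unstimulated control and 86.1 ± 2.29 in unstimulated diabetic libraries, against 290.7 ± 19.7 and 255.1 ± 5.82 with the stimulus. These levels rest on the authors' scaling, under which all CPM of a library also added up to more with the stimulus, while shares within a library do not. Mxd1 made up 2.97% ± 0.36 and 2.87% ± 0.15 of the summed level of the 8 genes without the stimulus and 49.3% ± 3.4 and 44.8% ± 1.5 with it (control and diabetic). Max went from 19.2% ± 0.47 and 18.6% ± 0.54 to 37.8% ± 2.57 and 40.0% ± 1.35. Myc went from 15.1% ± 1.36 and 14.3% ± 1.03 to 1.38% ± 0.17 and 0.67% ± 0.09. Mxd4, at 11.1% ± 0.36 and 11.5% ± 1.16 before, was at 0.24% ± 0.03 and 0.27% ± 0.03 after, so that Mxd1 and Max were the only members with a mean share above 10% in the stimulated groups.

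**Figure D3:**
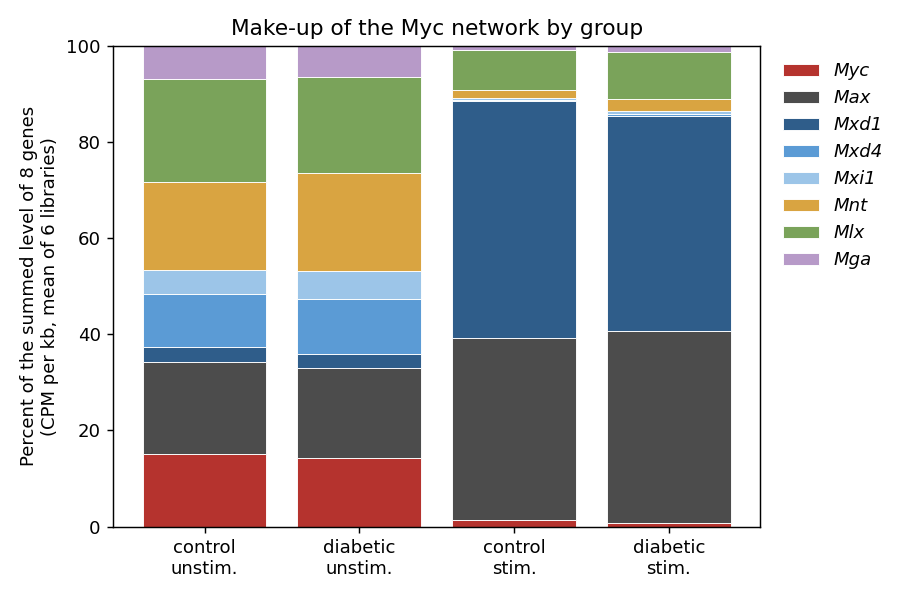
Share of each member in the summed level of the 8 genes, in percent of CPM per kilobase, as the mean of 6 libraries per group. Mxd1 and Max fill most of both stimulated bars (49.3% and 37.8% in control, 44.8% and 40.0% in diabetic cultures), and Myc shrinks from 15.1% and 14.3% to 1.38% and 0.67%.

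Ratios within a library do not depend on how libraries are scaled. Myc exceeded Mxd1 in every unstimulated library, by 5.41-fold at the median in control cultures (from 3.44-fold to 6.07-fold) and by 5.10-fold in diabetic ones (from 4.36-fold to 5.94-fold), per kilobase. After the stimulus Mxd1 exceeded Myc in every library, by 30.0-fold at the lowest, 35.5-fold at the median and 44.6-fold at the highest in control cultures. In diabetic cultures it did so by 56.4-fold, 66.1-fold and 78.7-fold, so that the 2 stimulated groups did not overlap. Myc over Max was 0.812 and 0.784 at the median without the stimulus and 0.0366 and 0.0161 with it.

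Ratios of other repressors to Myc also differed by phenotype with the stimulus, where Myc, their denominator, was itself lower in diabetic libraries. Mnt over Myc per kilobase was 1.20 at the median in unstimulated and 1.18 in stimulated control cultures, so these 2 transcripts were lower by a similar factor. In diabetic cultures it was 1.43 without the stimulus and 3.95 with it, between 3.17 and 4.39 in the stimulated libraries against 0.80 to 1.91 in the stimulated control libraries. Mxi1 over Myc was 0.325 and 0.254 in unstimulated and stimulated control cultures, and 0.414 and 1.17 in diabetic ones. Mxd4 over Myc was 0.708 and 0.184 in control and 0.805 and 0.382 in diabetic cultures, in the same order. Mxd4 itself differed by only -0.03 ± 0.07 between the stimulated phenotypes, so its ratio shifted with little change in Mxd4. Among the repressors, Mxd1 over Mxd4 turned from 0.266 and 0.257 to 190.5 and 165.9 (control and diabetic).

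**Figure D4:**
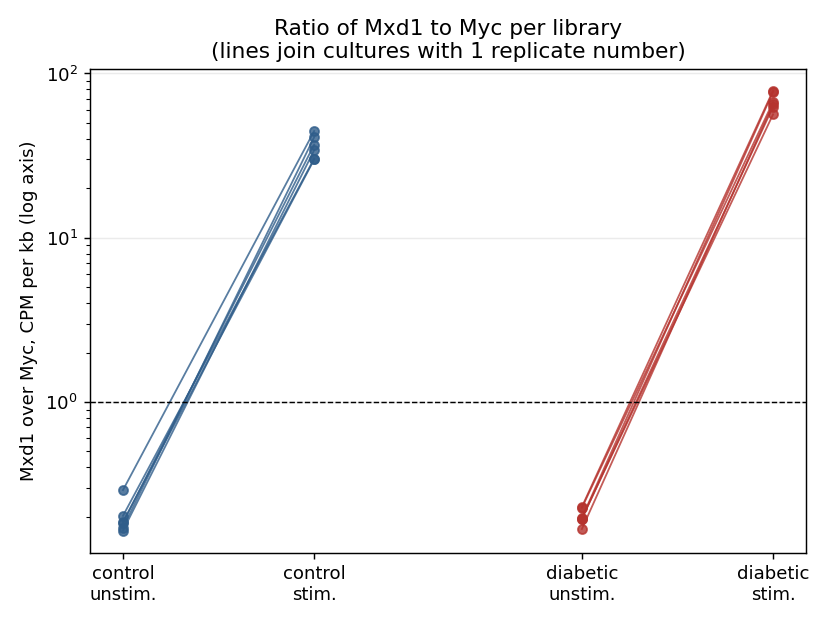
Ratio of Mxd1 to Myc per kilobase in each library on a log axis, with lines joining libraries that share a replicate number and a dashed line at equal levels. All unstimulated points lie below 1 and all stimulated points above it, between 30.0 and 44.6 in control and between 56.4 and 78.7 in diabetic cultures.

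Counts of members past an adjusted p of 0.05 in limma's moderated test across all genes are given beside the share of all tested genes, and nothing is read from them. All 8 members passed on stimulation in control and in diabetic cultures, 3 higher and 5 lower, where 91.3% and 90.3% of all genes passed. In unstimulated cultures 1 member, Mxi1, passed between the phenotypes, against 19.3% of all genes (9.16% higher and 10.2% lower). In stimulated cultures 6 passed against 51.7% of all genes, with Mxi1, Mnt and Mga higher and Myc, Max and Mxd1 lower in diabetic libraries. The responses differed for 4 members (Myc and Mxd1 lower, Mxi1 and Mga higher) against 32% of all genes. Groups did not overlap for 8 and 8 members on stimulation (81.2% and 81% of all genes), for 2 in unstimulated cultures (Mxi1 and Mnt, against 12.6%) and for 3 in stimulated cultures (Myc, Mxd1 and Mxi1, against 23.4%). The members' median log2 difference was -1.40 and -1.12 on stimulation, where the median of all genes was -0.30 and -0.25.

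Genes that work around the network were taken from lists chosen by function, with earlier results of these data known. Their counts and adjusted p-values are therefore a description of these data. Of 5 other network genes, 3 were in the table. Mycl, which encodes a MYC paralog, rose on stimulation from 0.89 ± 0.39 to 13.7 ± 4.14 CPM in control and from 0.98 ± 0.24 to 7.71 ± 1.21 in diabetic cultures (limma adjusted p = 3.4e-16 and 4e-13). It was thus lower in stimulated diabetic than control cultures, by -0.71 ± 0.15 on the log2 scale (adjusted p = 0.00033), in the same direction as Myc. Mxd3, the remaining MXD gene, fell from 6.56 ± 0.49 to 0.14 ± 0.07 CPM in control and from 9.15 ± 0.58 to 0.21 ± 0.10 in diabetic cultures (adjusted p = 3.1e-25 and 1.9e-26). Before the stimulus it was higher in diabetic cultures, by 0.43 ± 0.07 (adjusted p = 2.3e-05). Mlxip, which encodes the MONDO partner MLXIP of MLX, rose by 0.42 ± 0.05 and 0.22 ± 0.05 (adjusted p = 2.6e-09 and 0.00013), but fell by 0.29 and 0.41 under total-read scaling.

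Genes that ribosome production needs and that MYC is known to drive fell almost throughout with the stimulus. Of 25 listed, 24 fell and 1 rose in control cultures and 22 fell and 2 rose in diabetic ones, where 56.4% and 55.1% of all genes fell and 34.9% and 35.2% rose. Their median was -1.07 and -0.84. Nop56, a core protein of box C/D ribonucleoproteins, fell from 45.7 ± 2.19 to 10.9 ± 1.35 CPM in control cultures (adjusted p = 2.5e-23), and Dkc1, the pseudouridine synthase dyskerin, from 18.05 ± 1.52 to 1.98 ± 0.23 CPM (adjusted p = 1.5e-22). The gene that rose in control cultures was Noc4l, from 24.2 ± 0.61 to 64.7 ± 5.83 CPM (adjusted p = 3.8e-22), which is named here after its values were seen.

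In stimulated cultures 20 of these 25 genes were higher in diabetic than in control libraries and 1 was lower, against 29.8% and 21.9% of all genes. Their median log2 difference was 0.25, with 0.03 for all genes. Myc itself was lower there, and the part of MYC in this list's changes, with the stimulus or between phenotypes, was not tested. Gnl3, the nucleolar GTPase nucleostemin, averaged 5.17 ± 1.08 CPM in control libraries and 9.07 ± 1.02 CPM in diabetic ones, a difference of 0.72 ± 0.09 (adjusted p = 5.2e-07). Polr1b, a subunit of RNA polymerase I, was at 1.58 ± 0.31 and 3.17 ± 0.82 CPM (adjusted p = 2e-06), and Bop1, a factor of large-subunit maturation, at 31.0 ± 2.23 and 38.8 ± 2.80 CPM (adjusted p = 8.6e-06). The count was 21 and 0 under total-read scaling, 18 and 1 under median-of-ratios scaling, and 14 and 1 and 16 and 0 within the first and last 12 columns. Unstimulated, none was higher and 2 were lower in diabetic libraries, against 9.16% and 10.2% of all genes. The 2 were Tcof1, by -0.22 ± 0.04 (limma adjusted p = 0.00015), and Pes1, by -0.14 ± 0.04 (adjusted p = 0.026). The response itself differed for 17, all with a higher value in diabetic cultures, where 19.6% of all genes were higher and 12.4% lower. That count was 13 and 7 within the first and last 12 columns, and 15 higher and 1 lower under median-of-ratios scaling.

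Of 14 nucleotide and polyamine synthesis genes, 13 fell and 1 rose on stimulation in either phenotype, where 56.4% and 55.1% of all genes fell. Their medians were -1.97 and -1.68. Ctps, for CTP synthase, fell from 18.04 ± 1.86 to 0.96 ± 0.29 CPM in control cultures (adjusted p = 1.4e-23), and Umps, for UMP synthase, from 38.0 ± 1.89 to 3.59 ± 0.75 CPM (adjusted p = 3e-23). The exception, named after its values were seen, was Odc1, for ornithine decarboxylase, which rose from 15.5 ± 1.09 to 80.1 ± 12.6 CPM (adjusted p = 1.1e-19). In stimulated cultures 8 were higher in diabetic libraries and none was lower, against 29.8% and 21.9% of all genes. The counts were 10 and 0 under total-read scaling, 8 and 2 under median-of-ratios scaling, and 6 and 0 within either set of 12 columns. Gart, a purine synthesis enzyme, averaged 12.9 ± 1.25 CPM in control libraries and 17.98 ± 0.41 CPM in diabetic ones (0.46 ± 0.05 log2, adjusted p = 1.1e-07). Impdh2, for inosine monophosphate dehydrogenase, was at 4.52 ± 0.37 and 6.60 ± 1.11 CPM (adjusted p = 5.2e-05), and Srm, for spermidine synthase, at 2.28 ± 0.48 and 3.66 ± 0.64 CPM (adjusted p = 6.2e-05). No gene of this list passed between the phenotypes without the stimulus, where 19.3% of all genes did.

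**Figure D5:**
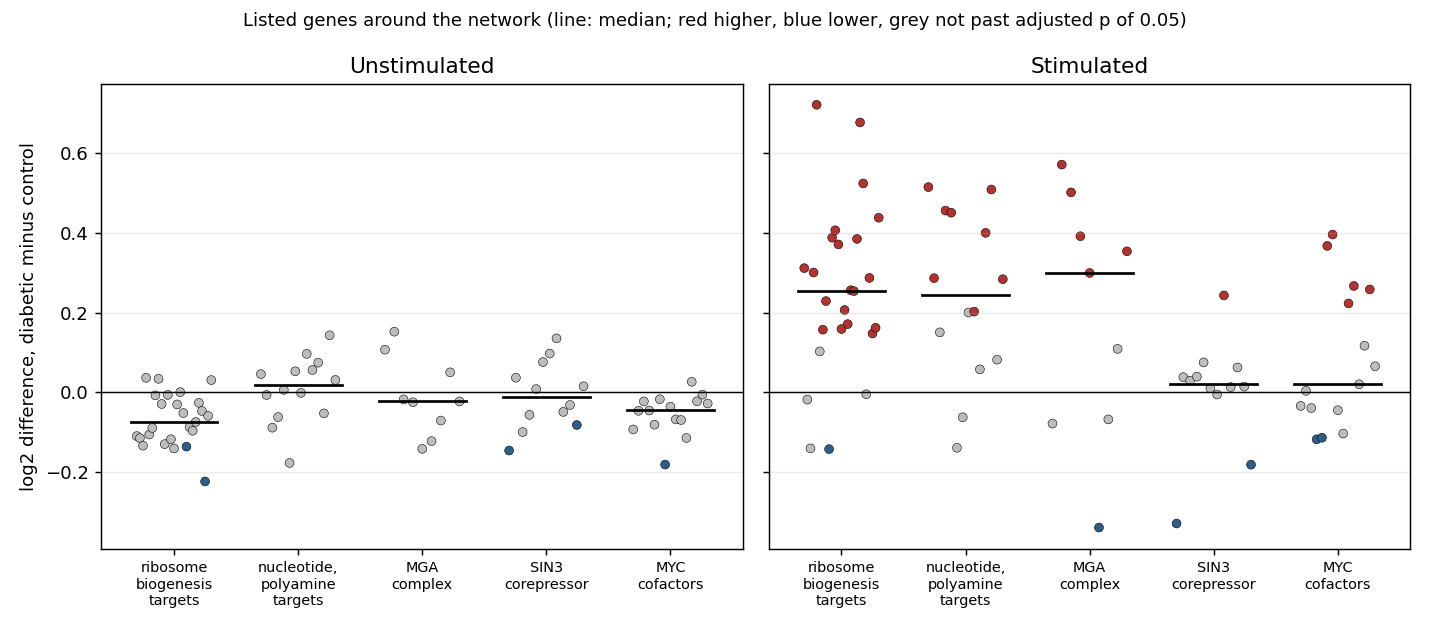
Log2 difference (diabetic minus control) of each listed gene in unstimulated cultures on the left and stimulated cultures on the right, with the list median as a bar and colour for genes past an adjusted p of 0.05. Ribosome biogenesis genes are mostly red on the right, 20 higher and 1 lower, and 2 are blue on the left.

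Of 9 genes for MGA's partners, 7 fell and 2 rose on stimulation in both phenotypes, where 56.4% and 55.1% of all genes fell. Their medians were -1.86 and -1.38. E2f6, which encodes the DNA-binding E2F subunit, fell from 33.3 ± 1.74 to 2.59 ± 0.33 CPM in control and from 37.1 ± 1.89 to 4.32 ± 0.25 CPM in diabetic cultures (adjusted p = 6.1e-29 and 1.8e-27). The 2 that rose, named after their values were seen, were Rybp and Rnf2. In stimulated cultures 5 were higher and 1 was lower in diabetic libraries, with a median of 0.30, where 29.8% of all genes were higher and 21.9% lower. Those with the smallest p were E2f6 (0.57 ± 0.06, adjusted p = 5.4e-09), L3mbtl2 (9.32 ± 1.31 against 13.6 ± 1.28 CPM, adjusted p = 1.3e-06) and Ring1, an E3 ligase of Polycomb complexes (9.72 ± 0.48 against 12.2 ± 0.99 CPM, adjusted p = 5.2e-05). The lower one was Rnf2, with a mean of 40.7 ± 3.14 CPM in control libraries and 32.1 ± 4.08 CPM in diabetic ones (adjusted p = 0.00013). None passed without the stimulus, where 19.3% of all genes did.

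The SIN3 corepressor that MXD and MNT recruit split. Of 12 subunit genes, 7 rose and 5 fell in both phenotypes, where 34.9% and 35.2% of all genes rose and 56.4% and 55.1% fell. Under total-read scaling 3 rose and 8 fell in control cultures, against 19.6% and 75.6% of all genes. Hdac1, a histone deacetylase, rose from 14.7 ± 0.57 to 54.4 ± 1.67 CPM and Sap30, a SIN3-associated subunit, from 20.3 ± 1.20 to 68.7 ± 5.42 CPM in control cultures (adjusted p = 1.5e-25 and 6.5e-24), and both kept their direction under total-read scaling. Rbbp7, a histone-binding subunit, fell from 110.4 ± 4.56 to 50.5 ± 1.64 CPM (adjusted p = 3.2e-21). Between the phenotypes in stimulated cultures 1 subunit gene was higher and 2 were lower, of which Arid4a averaged 152.0 ± 17.6 CPM in control libraries and 120.2 ± 4.10 CPM in diabetic ones (adjusted p = 5.6e-06). Scaling by total reads made that 9 higher and 1 lower. Of all genes 29.8% were higher and 21.9% lower, and 44.5% and 13% under total-read scaling.

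Of 15 genes for MYC cofactors, 10 fell and 4 rose in either phenotype, where 56.4% and 55.1% of all genes fell, but the counts were 7 and 7 in control cultures under median-of-ratios scaling. Kat2a, the acetyltransferase GCN5, fell from 51.0 ± 1.64 to 16.6 ± 1.39 CPM, Wdr5 from 51.4 ± 0.83 to 20.5 ± 2.02 CPM and Hcfc1 from 232.6 ± 6.32 to 95.3 ± 9.33 CPM in control cultures (adjusted p = 1.7e-21, 1.8e-20 and 2e-20). Ep400, a chromatin remodeller, rose in diabetic cultures from 124.6 ± 5.86 to 270.1 ± 18.3 CPM (adjusted p = 2.5e-19). In stimulated cultures 5 were higher and 2 were lower in diabetic libraries, against 29.8% and 21.9% of all genes. Under total-read scaling it was 9 and 0, against 44.5% and 13%. Hcfc1 was at 123.0 ± 7.17 CPM (limma adjusted p = 6.3e-07) and Kat2a at 22.2 ± 2.01 CPM (adjusted p = 9.3e-07) in the stimulated diabetic group.

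Of 13 genes that act on MYC protein stability, 11 fell and 1 rose in control cultures and 10 fell and 1 rose in diabetic ones. Of all genes 56.4% and 55.1% fell and 34.9% and 35.2% rose. Under median-of-ratios scaling 7 fell and 2 rose in control cultures, against 45.1% and 45.4% of all genes. The listed gene that rose in both phenotypes was Pim1, a kinase gene, from 42.3 ± 3.68 to 554.0 ± 49.1 CPM and from 38.6 ± 3.33 to 474.6 ± 13.4 CPM (adjusted p = 1.2e-29 and 2.3e-29). Skp2, for an F-box protein of MYC degradation, fell from 19.003 ± 1.36 to 1.90 ± 0.46 CPM in control cultures (adjusted p = 1e-22). In stimulated cultures 5 were higher and 3 were lower in diabetic libraries, against 29.8% and 21.9% of all genes. Under total-read scaling it was 7 and 0, against 44.5% and 13%. Usp36, for a nucleolar deubiquitinase of MYC, averaged 6.68 ± 1.48 CPM in control libraries and 11.7 ± 1.59 CPM in diabetic ones (0.74 ± 0.10 log2, adjusted p = 1.1e-06). Pim1 was lower by -0.22 ± 0.06 (adjusted p = 0.0026), which total-read scaling moved to -0.11 (adjusted p = 0.066).

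Genes of entry into the cell cycle did not share a direction. Of 12, 7 fell and 4 rose on stimulation in control cultures, and 7 fell and 5 rose in diabetic ones. Of all genes 56.4% and 55.1% fell and 34.9% and 35.2% rose. E2f2 fell from 45.3 ± 3.69 to 1.64 ± 0.17 CPM and E2f1 from 74.2 ± 3.18 to 12.4 ± 0.42 CPM in control cultures (adjusted p = 1.6e-29 and 1.2e-29), while Id2, for an inhibitor of helix-loop-helix factors, rose from 66.6 ± 3.20 to 291.3 ± 18.5 CPM (adjusted p = 4.6e-27). Without the stimulus 2 were higher and 3 were lower in diabetic libraries, against 9.16% and 10.2% of all genes. Under total-read scaling it was 3 and 2, against 12.1% and 8.02%. Ccnd2 and Ccnd1, the D-type cyclin genes, were lower by -1.46 ± 0.12 and -0.66 ± 0.08 (adjusted p = 1.1e-08 and 6.4e-07), and E2f2 was higher by 0.37 ± 0.07 (adjusted p = 0.00017). The 6 markers of proliferating cells were higher there. In stimulated cultures 6 of the 12 were higher and 4 were lower in diabetic libraries, against 29.8% and 21.9% of all genes. Cdc25a, a phosphatase gene known as a MYC target, averaged 6.58 ± 0.84 CPM in control libraries and 9.61 ± 0.40 CPM in diabetic ones (limma adjusted p = 5.5e-08).

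Of 7 known targets of MLX with MONDO factors, 5 were tested, and 4 fell and 1 rose on stimulation in both phenotypes. Of all genes 56.4% and 55.1% fell and 34.9% and 35.2% rose. Arrdc4, an arrestin-domain gene, rose from 7.24 ± 1.22 to 48.6 ± 4.74 CPM in control cultures (adjusted p = 2e-20), and Fasn, for fatty acid synthase, fell from 201.9 ± 23.96 to 11.5 ± 2.86 CPM (adjusted p = 6.6e-20). Without the stimulus 2 of the 5 were higher and none was lower in diabetic libraries, against 9.16% and 10.2% of all genes. These were Arrdc4 (12.4 ± 1.96 CPM) and Txnip (489.4 ± 47.5 CPM), with 7.24 ± 1.22 and 391.0 ± 33.2 CPM in control libraries (limma adjusted p = 1.8e-06 and 0.03). Mlx itself was not higher there. Of 13 genes for other E-box factors, 9 fell and 4 rose in both phenotypes, where 56.4% and 55.1% of all genes fell and 34.9% and 35.2% rose. Bhlhe41 fell from 52.1 ± 4.48 to 1.67 ± 0.25 CPM and Tfec, of the MiT family, rose from 16.2 ± 0.996 to 84.5 ± 8.86 CPM in control cultures (adjusted p = 1.8e-25 and 6.4e-24). In stimulated diabetic libraries 7 of the 13 were higher and 1 was lower, against 29.8% and 21.9% of all genes. The lower one, Usf1, was at 49.0 ± 2.30 against 61.6 ± 3.49 CPM (limma adjusted p = 2.8e-07).

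Genes with a profile most like that of Myc were sought by the root-mean-square difference of log2(CPM + 1) after centring each of the 11710 genes over the 24 libraries. Wdhd1, a replication factor gene, was nearest at 0.20, with Nrp1, for a semaphorin and growth factor co-receptor, at 0.22 and Fam107b at 0.24. Wdhd1 averaged 43.0 and 44.3 CPM without the stimulus and 16.6 and 6.98 CPM with it (control and diabetic). For Mxd1 the nearest were Fscn1, for the actin bundler fascin, at 0.14, Il4ra, for the interleukin-4 receptor alpha chain, at 0.16 and Lpar1, for a lysophosphatidic acid receptor, at 0.18. Il4ra averaged 83.9 and 72.1 CPM without the stimulus and 3576 and 3320 CPM with it. Among the members, the nearest to Myc was Mnt, at 0.64, and the nearest to Mxd1 was Max, at 1.47; pairs of other members were not compared.

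Markers of the labelled cell type were present throughout, since the 6 macrophage markers summed to between 5952 and 8579 CPM over all libraries. The sum was lower in diabetic than in control libraries, at 5952 to 6527 against 6832 to 7553 CPM without the stimulus and 6247 to 7047 against 7449 to 8579 CPM with it. Gene by gene, 3 of the 6 were lower and none was higher without the stimulus, and 3 were lower and 1 higher with it (3 and 3 under total-read scaling). Of all genes 10.2% were lower and 9.16% higher without the stimulus, and 21.9% and 29.8% with it. Markers of proliferating cells, 6 of 6 in the table, summed without the stimulus to between 766 and 1040 CPM (control) and between 1102 and 1249 CPM (diabetic). With it the sums were 108 to 141 and 141 to 191 CPM. All 6 fell with the stimulus and were higher in diabetic libraries under both conditions, so they moved down with Myc on stimulation but opposite to it between the stimulated phenotypes. Of the B lineage list 2 of 5 genes were in the table, and they summed to 7.57 to 20.7 and 24.3 to 58.3 CPM (control and diabetic) without the stimulus and to 1.29 to 2.30 and 2.95 to 5.26 CPM with it. Most of that sum was Ighm, at 11.6 ± 4.79 and 36.7 ± 12.4 CPM without the stimulus (adjusted p = 2.4e-05), while Cd79b was lower in diabetic libraries, at 1.42 ± 0.25 and 0.96 ± 0.28 CPM (adjusted p = 0.02). The neutrophil list, 2 of 6 genes, summed to 14.3 to 23.3 and 34.1 to 43.7 CPM and to 28.8 to 34.9 and 38.9 to 50.9 CPM in the same order. The progenitor list, 3 of 4 genes, summed to 2.06 to 4.88 and 4.99 to 6.73 CPM without the stimulus and to 0.69 to 1.97 and 1.36 to 3.01 CPM with it. The T and NK cell list, 2 of 5 genes, summed to 0.28 to 0.48 and 0.74 to 1.33 CPM and to 7.27 to 10.0 and 10.8 to 16.3 CPM in the same order. No marker in the table was at 0 in all libraries of a group, and the part of these differences in the members' values was not tested.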

How the data were processed

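RNA of 24 cultures was sequenced after a TruSeq Stranded mRNA preparation, per the labels' protocols, although the labels list the molecule as genomic DNA. Reads were aligned with STAR 2.5.3a and values made with edgeR 3.16.5 in R 3.3.3 on GRCm38 (mm10), per the submitters' processing notes, while how reads were counted is, in the sources used here, not given. Per gene, the authors deposited log2 CPM with a common floor of -6.67. The floor was subtracted on the linear scale to give CPM, and all values were then whole multiples of what 1 read is worth, within 0.01 read. Depth was 16754771 to 34130060 reads.

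The values are logs, so no count test was run. limma 3.58.1 (R 4.3.3, trend and robust) was fitted to log2(CPM + 1) of 11710 genes with at least 1 CPM in 6 or more libraries, with 4 group means, 20 residual degrees of freedom and Benjamini-Hochberg adjustment at 0.05, after tests on simulated data. All 8 members passed the minimum. A fold change on log2(CPM + 1) understates the change of low genes, while fold values in the text are ratios of mean CPM. Members and lists were chosen with earlier results of these data known. Named list genes are the up to 3 with the smallest p per list and comparison, apart from those said to be named after their values were seen. Levels between genes use merged exon length (GENCODE M21). Promoters and motifs are from RefSeq tables.

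Replicate numbers were taken to mark the 2 portions of 1 mouse's culture, from the series design, which says that each sample was split. Deviations of same-numbered libraries correlated at 0.12 on average over 12 mice (from -0.08 to 0.40, above 0.1 in 5). No 2 libraries agreed within sampling noise, the lowest chi-square over its degrees of freedom being 3.20. Alternatives were the pseudocount, the deposited log2 values, no minimum, scaling by total reads or by median of ratios, only the groups compared, the replicate block, array weights, no trend, the first or last 12 columns, and leaving out each library.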

Additional observations from a re-analysis of the deposited data

Results flagged for a closer look

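Among 32 sets of 6 libraries (8 members in 4 groups), 2 held a library far from the other 5 by Dixon's criterion, and chance flags about 1 in 20 such sets. Myc in unstimulated control replicate 3 was lowest at 28.02 CPM, with the next at 34.9. Mxd1 in stimulated control replicate 3 was highest at 1295 CPM, with the next at 999.4.

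The response to LPS and IFNγ differed between diabetic and control cultures, by the interaction term of the fit, for 4 members. It was lower by -1.01 on the log2 scale for Myc (-2.62 in diabetic, -1.60 in control cultures) and by -0.29 for Mxd1 (5.45 and 5.74). It was higher by 0.59 for Mxi1 (-1.41 and -2.003) and by 0.36 for Mga (-0.83 and -1.19). Since the members were chosen with these values known, this is a description.

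Among the listed genes with the smallest p, the difference was -0.79 for Mycl (2.14 in diabetic, 2.93 in control cultures), -0.34 for Mxd3 (-3.07 and -2.73; 0.086 with adjusted p = 0.90 by limma on the deposited log2 values) and -0.20 for Mlxip (0.22 and 0.42). Partners of MGA differed by 0.44 for Ring1 (-0.54 and -0.98), 0.42 for E2f6 (-2.84 and -3.26) and 0.52 for L3mbtl2 (-1.38 and -1.90). Ribosome production genes differed by 0.37 for Tcof1 (0.11 and -0.27), 0.39 for Pes1 (-0.42 and -0.81) and 0.83 for Gnl3 (-1.63 and -2.45). Nucleotide and polyamine genes differed by 0.52 for Gart (-1.78 and -2.30), 0.56 for Srm (-2.21 and -2.77) and 0.44 for Impdh2 (-0.52 and -0.96).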

How the results depend on the processing

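The members' stimulated minus unstimulated differences passed the threshold, with 8 of 8, under each alternative run. Between the unstimulated phenotypes 2265 genes passed in the main analysis, 3502 with array weights, and 1506 and 861 within the first and last 12 columns, where fewer libraries enter. The members past it there were 1 (Mxi1), but 2 with only the groups compared and 0 within the last 12 columns. Mxi1 did not pass within the first 12 columns either, where Mlx did, at -0.18. For the difference between responses 3747 genes passed, against 2440 and 1642 within the first and last 12 columns. That comparison needs all 4 groups, so it has no value for only the groups compared. Of its 4 members, Mxd1 passed within neither set of 12 columns and Mga only within the last 12. Mlx passed within the first 12 columns and under total-read scaling.

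Signs turned under total-read scaling for Max between the stimulated phenotypes (0.0022) and in the difference between responses (0.011), for Mxd4 between the stimulated phenotypes (0.059), for Mlx on stimulation (-0.32 in control, -0.10 in diabetic cultures) and for Mlxip on stimulation (-0.29 and -0.41) and between the stimulated phenotypes (0.033). Mxd3 turned to -0.042 between the stimulated phenotypes within the first 12 columns and to 0.086 in the difference between responses when the deposited log2 values were tested. Between the unstimulated phenotypes Myc (0.060) and Max (0.014) turned within the last 12 columns, and Mxd1 (0.016) with 1 library left out. Between the stimulated phenotypes Mxd4 turned within the first 12 columns (0.040) and with 1 library left out (0.025), and Mlx under median-of-ratios scaling (-0.0052). The cause of these reversals was not tested. The split of genes that rose and fell on stimulation in control cultures was 4081 and 6607, against 2300 and 8856 with total reads and 5318 and 5276 with median-of-ratios scaling. In diabetic cultures it was 4117 and 6457, against 2371 and 8752 and 5244 and 5244. Between unstimulated phenotypes it was 1073 and 1192, against 1416 and 939 and 1027 and 1162. Between stimulated phenotypes it was 3494 and 2565, against 5213 and 1528 and 2718 and 3422. For the difference between responses it was 2297 and 1450, against 3208 and 1018 and 1765 and 2033.

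With the replicate block, 10718 and 10596 genes passed on stimulation, 2262 and 6060 between the phenotypes and 3988 for the difference between responses, and the block changed no member's call. Leaving out 1 library at a time gave 10617 to 10703, 10495 to 10607, 1847 to 2395, 5545 to 6170 and 3445 to 4003 genes. The members past the threshold were 8 in both responses, 1 to 2 and 5 to 6 between the phenotypes and 4 to 5 for the difference between responses.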
